A study of Homo sapiens with 12 samples.

Results

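The 10 genes described here encode the cyclin-dependent kinase (CDK) inhibitors and 3 of the G1 cyclins in C4.2B prostate cancer cells exposed to an AKT inhibitor, an EZH2 inhibitor or both. They were taken by gene symbol from the deposited table of gene counts and are 10 of its 58735 genes. The Cip/Kip inhibitors are CDKN1A, CDKN1B and CDKN1C, the INK4 inhibitors are CDKN2A, CDKN2B, CDKN2C and CDKN2D, and the cyclins are CCND1, CCND2 and CCNE2. C4.2B is a castration-resistant human line derived from LNCaP and is 1 line grown in dishes, so it holds no stroma or immune cells. RNA-seq libraries were made from 4 arms with 3 dishes each. DMSO received vehicle only, the arm labelled IPATA received the AKT inhibitor ipatasertib at 0.25 µM (AKTi), the arm labelled TAZ received the EZH2 inhibitor tazemetostat at 1 µM (EZH2i), and COMBO received both (combination). Tazemetostat was given for 6 days before cotreatment, and RNA was taken after 24 hours of cotreatment in charcoal-stripped serum, which all arms shared.

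Passage from G1 into S phase is driven by D-type cyclins with CDK4 and CDK6 and then by E-type cyclins with CDK2, which phosphorylate the retinoblastoma protein and release E2F factors. INK4 inhibitors bind CDK4 and CDK6, whereas Cip/Kip inhibitors bind cyclin-CDK complexes, above all those of CDK2. AKT is known to act against CDKN1A and CDKN1B through the proteins themselves and through FOXO factors. EZH2, the methyltransferase of Polycomb repressive complex 2, is known for silencing the INK4 locus and CDKN1C in many cell types.

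Library totals ran from 14133755 to 22276417 counts, and libraries within an arm differed beyond sampling noise (a chi-square of 2.53 to 7.5 per gene over pairs). Nothing in the labels says that the 3 dishes of an arm were separate experiments, so p-values measure the spread between these dishes. All 9 luminal prostate markers passed the filter on low counts, and their summed level was 3866 to 3995 CPM, counts scaled to a common library total, in DMSO, 5998 to 6177 in AKTi, 6691 to 6922 with EZH2i and 8663 to 8849 in the combination. Of 14 markers of other cell types, 4 passed, CD3E and KRT5 were at 0 in all 12 libraries, and the summed level was 8.44 to 12.9 CPM in DMSO, 10.3 to 11.3 in AKTi, 24.6 to 27.3 with EZH2i and 18.9 to 22.5 in the combination. The part of these shifts in the results was not tested.

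Of the 10 genes, 9 were tested among 16646 genes with edgeR's quasi-likelihood test, and CCND2 was too low. In AKTi, 2 were higher and 5 lower than in DMSO at an adjusted p under 0.05, where 20.6% of all genes tested were higher and 21.9% lower. In EZH2i, 4 were higher and 3 lower, against 32.6% and 31.5% of all genes. In the combination, 4 were higher and 5 lower, against 38.0% and 35.2% of all genes, so all 9 passed the test in one direction or the other. The median log2 difference of the 9 was -0.72 in AKTi, -0.08 with EZH2i and -0.42 in the combination, where the medians of all genes were 0.007, 0.03 and 0.06. Levels are given below as CPM after TMM scaling, as mean ± SD over 3 libraries, and in bulk RNA a smaller share of cells expressing a gene cannot be told apart from less RNA per cell.

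**Figure D1:**
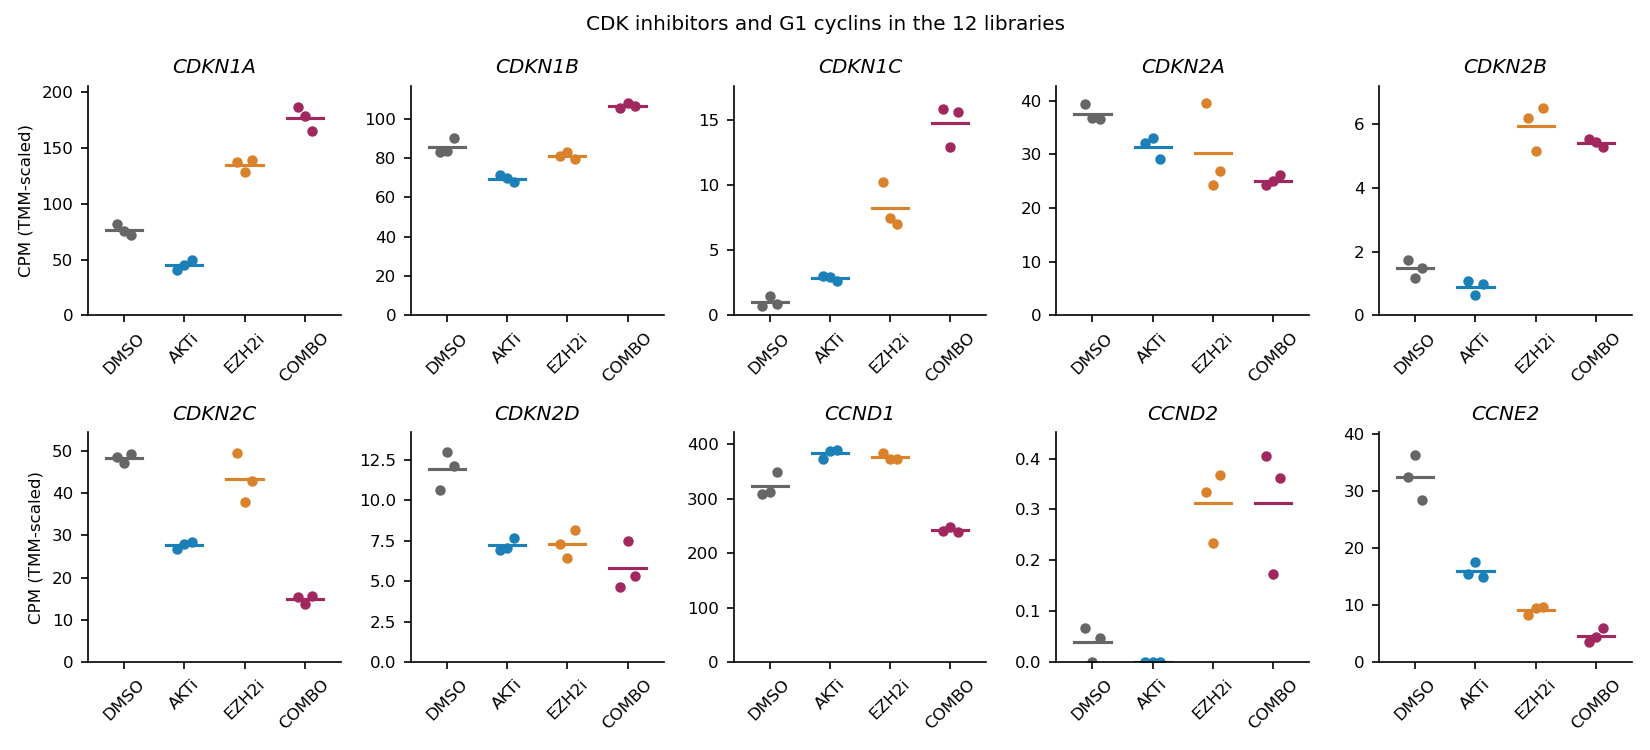
Level of each of the 10 genes in the 12 libraries, as CPM after TMM scaling on a linear axis from 0. Points are libraries and bars are the means of 3. CDKN1A and CDKN1C were highest in the combination, CCNE2 was lowest there, and CCND2 stayed under 0.5 CPM in every library.

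Combination levels of all 3 Cip/Kip genes lay above those of every other arm, with no overlap. Of all genes tested, 38.0% were called higher in the combination than in DMSO, 32.1% than in AKTi and 21.1% than in EZH2i. The share of all genes separated without overlap was not counted. CDKN1A (p21, chromosome 6, 36676460 to 36687339, plus strand, hg38) encodes the inhibitor best known as a target of p53. It measured 81.8, 75.5 and 72.4 CPM in the DMSO libraries, 41.0, 44.8 and 49.6 in AKTi, 137, 129 and 139 with EZH2i, and 186, 179 and 164 in the combination. The 4 arms did not overlap, with every AKTi library below and every EZH2i and combination library above DMSO. The log2 difference from DMSO was -0.76 ± 0.071 (SE, adjusted p = 4.48e-11) in AKTi, 0.82 ± 0.066 (adjusted p = 1.75e-13) with EZH2i and 1.21 ± 0.065 (adjusted p = 9.64e-19) in the combination, a 2.31-fold higher level. AKTi thus went with less CDKN1A in cells without tazemetostat and with more in cells that had it, by 0.39 ± 0.063 between the combination and EZH2i (adjusted p = 2.61e-06). The difference between these AKTi effects, the interaction, was 1.15 ± 0.095 on the log2 scale (adjusted p = 5.9e-12).

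CDKN1B (p27, chromosome 12, 12715058 to 12722371, plus strand) encodes the inhibitor that holds CDK2 in resting cells and is a FOXO target in many settings. Its levels were 82.9, 83.8 and 90.3 CPM in DMSO, 71.2, 69.9 and 67.8 in AKTi, 81.0, 83.2 and 79.6 with EZH2i, and 105, 108 and 106 in the combination. AKTi lay below and the combination above all DMSO libraries, while EZH2i overlapped DMSO. The log2 differences were smaller than those of CDKN1A, at -0.30 ± 0.061 (adjusted p = 9.31e-05) in AKTi, -0.08 (95% confidence interval -0.20 to 0.04, adjusted p = 0.248) with EZH2i and 0.31 ± 0.058 (adjusted p = 1.19e-05) in the combination. Scaling by library size turned the EZH2i value to 0.07 and upper-quartile scaling turned it to 0.04, both without a call. As for CDKN1A, the AKTi effect changed sign with tazemetostat, and the interaction was 0.69 ± 0.084 (adjusted p = 4.08e-08).

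CDKN1C (p57, chromosome 11, 2883213 to 2885773, minus strand) is an imprinted Cip/Kip gene of growth arrest and differentiation. It was scarce in DMSO, with 11, 20 and 19 raw counts, and reached 313, 224 and 259 raw counts in the combination. The scaled levels were 0.74, 1.48 and 0.91 CPM in DMSO, 3.04, 2.94 and 2.64 in AKTi, 10.2, 7.48 and 7.03 with EZH2i, and 15.9, 12.9 and 15.6 in the combination. Each arm lay wholly above the one before it in that order. The log2 difference from DMSO was 1.49 ± 0.27 (adjusted p = 1.76e-05) in AKTi, 3.0 ± 0.23 (adjusted p = 3.29e-14) with EZH2i and 3.85 ± 0.22 (adjusted p = 2.62e-18) in the combination. The combination value was the widest difference from DMSO among the 9 genes tested, and CDKN1C was the only one of the inhibitors called higher in AKTi alone. Its interaction of -0.63 ± 0.31 did not pass (adjusted p = 0.134).

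Within the Cip/Kip family, counts per kilobase of the deposited gene length give shares that do not depend on scaling between libraries. CDKN1A made up 44.8% ± 2.58 of the family in DMSO, 36.3% ± 2.81 in AKTi, 57.8% ± 1.47 with EZH2i and 56.8% ± 1.66 in the combination. CDKN1B went from 54.4% ± 2.54 in DMSO to 37.3% ± 1.47 in the combination, and CDKN1C from 0.754% ± 0.289 to 5.88% ± 0.698. The leading Cip/Kip transcript was therefore CDKN1B in DMSO and AKTi, and CDKN1A with EZH2i and the combination. For each of the 3 genes the arms did not overlap DMSO, and the exact two-sided permutation p was 0.1, the smallest that 3 against 3 libraries allow (0.116 after adjustment over 36 share tests).

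**Figure D2:**
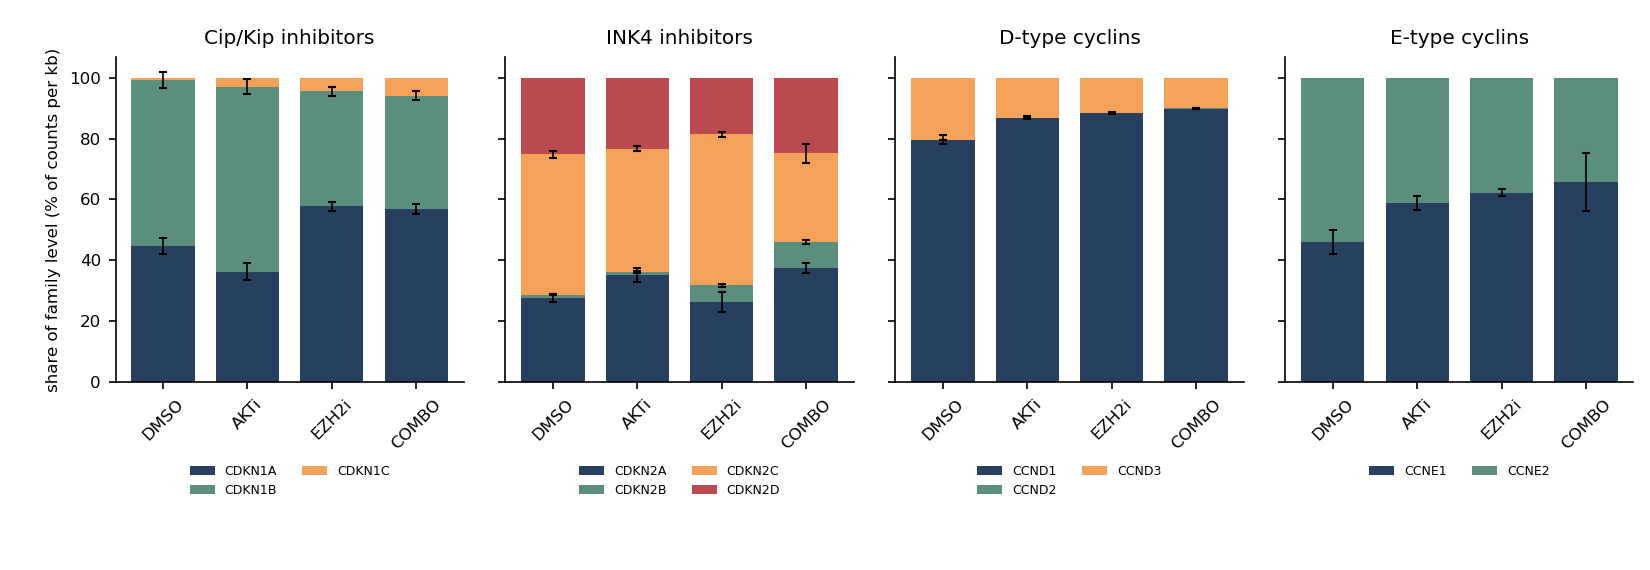
Share of each family's level, in percent of counts per kilobase, taken by its members in each arm. Segments are means of 3 libraries and bars at segment tops are SDs of that member's share. CDKN1A overtakes CDKN1B with EZH2i, CDKN2B widens from 1.15% to 8.60% of the INK4 family, and CCNE2 narrows from 54.0% to 34.2% of the E-type cyclins.

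The INK4 genes moved in opposite directions. CDKN2B (p15, chromosome 9, 22002903 to 22009363, minus strand), a gene known to respond to TGF-beta, had 16 to 31 raw counts in the DMSO libraries and 9 to 15 in AKTi. Its levels were 1.75, 1.18 and 1.49 CPM in DMSO, 1.09, 0.63 and 0.97 in AKTi, 6.16, 5.14 and 6.48 with EZH2i, and 5.53, 5.42 and 5.26 in the combination. Both arms with tazemetostat lay above both arms without it, and they overlapped each other. The log2 difference from DMSO was 2.0 ± 0.23 (adjusted p = 2e-09) with EZH2i and 1.86 ± 0.24 (adjusted p = 7.47e-09) in the combination. AKTi alone gave -0.72 ± 0.31 without passing (adjusted p = 0.0598), and it passed at -0.86 when DMSO replicate B was left out (adjusted p = 0.0354). Between the combination and EZH2i the difference was -0.14 (95% confidence interval -0.54 to 0.27, adjusted p = 0.609).

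CDKN2A (chromosome 9, 21967753 to 21995301, minus strand) lies next to CDKN2B and encodes both p16INK4A and p14ARF, which a gene-level count does not separate. Its levels were 39.5, 36.9 and 36.5 CPM in DMSO, 32.1, 33.1 and 29.2 in AKTi, 39.6, 24.3 and 26.9 with EZH2i, and 24.2, 25.1 and 26.1 in the combination. EZH2i replicate A stood level with the highest DMSO library while its other replicates lay below every DMSO library. The combination was lower than DMSO by -0.58 ± 0.11 on the log2 scale (adjusted p = 1.31e-05), and its libraries did not overlap DMSO. EZH2i was lower by -0.32 ± 0.11 (adjusted p = 0.00908), a call lost by scaling to library size (-0.18, adjusted p = 0.148), by upper-quartile scaling (-0.20, adjusted p = 0.105) and without EZH2i replicate B (-0.20, adjusted p = 0.117). AKTi gave -0.26 ± 0.11 (adjusted p = 0.0575), which passed in 5 of 14 alternatives, among them without AKTi replicate B (-0.32, adjusted p = 0.0398). CDKN2A and CDKN2B thus lay apart in the combination, one lower and the other 3.64-fold higher than in DMSO. The antisense gene CDKN2B-AS1 overlaps both and held 1 to 21 counts per library, with 42 counts in all over the DMSO libraries and 14 over the combination.

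CDKN2C (p18, chromosome 1, 50960745 to 50974633, plus strand) is an INK4 gene that E2F factors are known to activate. It measured 48.7, 47.3 and 49.3 CPM in DMSO, 26.9, 28.0 and 28.4 in AKTi, 49.6, 37.9 and 42.8 with EZH2i, and 15.4, 13.8 and 15.6 in the combination. AKTi lay below DMSO and the combination below AKTi, whereas EZH2i overlapped DMSO. The log2 difference was -0.80 ± 0.088 (adjusted p = 1.74e-09) in AKTi and -1.70 ± 0.092 (adjusted p = 1.02e-18) in the combination, a 3.24-fold lower level. EZH2i alone gave -0.16 ± 0.084 without passing (adjusted p = 0.0919), and it passed without DMSO replicate B (-0.23, adjusted p = 0.037) or without EZH2i replicate A (-0.29, adjusted p = 0.00389). The interaction was -0.73 ± 0.13 (adjusted p = 2.47e-05), so AKTi went with a larger fall of CDKN2C in cells that had tazemetostat.

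CDKN2D (p19, chromosome 19, 10566462 to 10569059, minus strand) is the INK4 gene whose level is known to oscillate with the cell cycle. Its levels were 10.6, 13.0 and 12.1 CPM in DMSO, 6.94, 7.08 and 7.65 in AKTi, 7.30, 6.43 and 8.18 with EZH2i, and 4.66, 7.5 and 5.32 in the combination. All treated libraries lay below all DMSO libraries, and the treated arms overlapped one another. The log2 differences from DMSO were -0.72 ± 0.16 (adjusted p = 3.21e-04) in AKTi, -0.70 ± 0.16 (adjusted p = 1.7e-04) with EZH2i and -1.04 ± 0.16 (adjusted p = 4.2e-07) in the combination. The combination differed from AKTi by -0.31 (95% confidence interval -0.66 to 0.03) and from EZH2i by -0.34 (-0.67 to -0.001), with adjusted p = 0.103 and 0.0934. Both passed without COMBO replicate B, at -0.54 (adjusted p = 0.00936) and -0.56 (adjusted p = 0.00933).

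In shares of the INK4 family per kilobase, CDKN2C led in DMSO with 46.2% ± 1.09 and fell to 29.1% ± 3.17 in the combination. CDKN2A held 27.5% ± 1.38 in DMSO and 37.5% ± 1.65 in the combination, where it was the leading INK4 transcript although its CPM was lower than in DMSO. CDKN2B took 1.15% ± 0.231 in DMSO, 5.57% ± 0.561 with EZH2i and 8.60% ± 0.576 in the combination. These 3 shares of the combination did not overlap DMSO (exact permutation p = 0.1, the smallest possible), whereas CDKN2D, at 25.1% ± 2.34 and 24.8% ± 5.11, overlapped it.

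The upstream sequence is shown for the inhibitors that were higher in the combination and are in the RefSeq promoter table, as genes that moved the same way. Each line holds the 250 bases before a RefSeq start site on GRCh38.p14, read 5′ to 3′ on the gene's strand. GC boxes (GGGCGG or its reverse complement, overlapping copies joined) are in capitals. The CDKN1A window is chr6:36678464-36678713 on the plus strand, the CDKN1B window chr12:12717118-12717367 on the plus strand and the CDKN2B window chr9:22009306-22009555 on the minus strand. The CDKN1A and CDKN1B windows lie inside the gene spans given above, and the CDKN2B window overlaps its span in part. These start sites are therefore not the outer ends of the counted genes.
CDKN1A: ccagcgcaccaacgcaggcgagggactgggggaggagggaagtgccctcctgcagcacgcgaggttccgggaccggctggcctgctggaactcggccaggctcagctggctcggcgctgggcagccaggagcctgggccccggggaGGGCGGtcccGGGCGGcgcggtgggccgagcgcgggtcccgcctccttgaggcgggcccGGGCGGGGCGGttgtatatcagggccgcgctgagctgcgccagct
CDKN1B: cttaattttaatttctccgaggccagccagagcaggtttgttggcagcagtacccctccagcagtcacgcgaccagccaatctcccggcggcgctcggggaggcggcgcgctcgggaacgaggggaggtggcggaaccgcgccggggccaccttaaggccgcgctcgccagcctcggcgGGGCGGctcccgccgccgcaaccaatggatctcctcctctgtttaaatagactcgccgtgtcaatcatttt
CDKN2B: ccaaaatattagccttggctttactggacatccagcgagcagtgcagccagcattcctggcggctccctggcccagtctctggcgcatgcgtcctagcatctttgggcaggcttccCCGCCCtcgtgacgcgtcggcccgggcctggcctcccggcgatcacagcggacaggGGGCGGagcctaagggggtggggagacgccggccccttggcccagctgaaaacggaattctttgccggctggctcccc
The CDKN1A window holds 4 GC boxes, 104, 94, 45 and 40 bases before the start, of which the last pair overlaps. CDKN1B has 1, at 71 bases, and CDKN2B has 2, at 134 and 78 bases, the first on the opposite strand. Of 35116 RefSeq promoters of the same length, 42.6% hold a GC box on either strand. CpG dinucleotides numbered 27, 27 and 18 in these windows against a median of 11 over all promoters. Windows of the inhibitors that were lower in the combination held 7, 35 and 10 (CDKN2C), 24 and 20 (CDKN2A) and 33 (CDKN2D). GC boxes occur in windows of each of these lower genes too, so neither feature sets the higher genes apart. The search covered 9 start sites, of CDKN1A, CDKN1B, CDKN2A, CDKN2B, CDKN2C and CDKN2D. CDKN1C and the cyclins CCND1, CCND2 and CCNE2 were not searched. None of the 9 windows holds the E2F words searched (TTTCCCGC, TTTCGCGC, TTTGCCGC or TTTGGCGC, in 2.79% of all promoters) or the FOXO word GTAAACA (2.98%) on either strand, which says only that these letters are not in these windows. Among these 9 windows, the E-box CACGTG, found in 6.34% of promoters, occurs in those of CDKN2C alone, at the first and the third of its 3 start sites.

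Among the cyclins, CCND1 (cyclin D1, chromosome 11, 69641087 to 69654474, plus strand) was by far the most abundant. It measured 308, 313 and 350 CPM in DMSO, 373, 387 and 390.5 in AKTi, 384, 373 and 373 with EZH2i, and 242, 248 and 239 in the combination. Each single agent lay above DMSO and the combination below it, without overlap. The log2 difference was 0.24 ± 0.053 (adjusted p = 2.71e-04) in AKTi, 0.22 ± 0.053 (adjusted p = 5.13e-04) with EZH2i and -0.42 ± 0.053 (adjusted p = 1.1e-08) in the combination. The single agents differed from each other by -0.03 (95% confidence interval -0.13 to 0.08, EZH2i minus AKTi). The interaction was -0.88 ± 0.075 (adjusted p = 1.6e-11), as the agents together went the other way from either alone. LTO1, which overlaps CCND1 on the opposite strand, held 187 to 298 counts per library against 3957 to 8120 for CCND1.

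CCND2 (cyclin D2, chromosome 12, 4273772 to 4305350, plus strand) was at the limit of detection. The libraries held 1, 0 and 1 counts in DMSO, none in AKTi, 5, 4 and 8 with EZH2i, and 8, 3 and 6 in the combination. Every library with tazemetostat held more counts than any library without it. Summed over 3 libraries, 17 counts with EZH2i and 17 in the combination stood against 2 in DMSO, a ratio per total count of 8.60 (exact 95% interval 2.04 to 76.7) and 8.93 (2.12 to 79.7), where the intervals cover counting error only. AKTi had 0 counts and was given a ceiling of 3 counts over the group (0.0686 CPM). The pooled level was 4.75-fold that ceiling with EZH2i and 4.93-fold in the combination, without the counting error of the 17 counts. At 0.0438 RPKM (CPM per kilobase of gene length) in the combination, CCND2 stayed far below CCND1 at 50.3.

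CCND3, the remaining D-type cyclin, was lower in every treated arm, by a log2 difference of -0.52 ± 0.066 (adjusted p = 3.45e-08) in AKTi, -0.76 ± 0.066 (adjusted p = 1.26e-12) with EZH2i and -1.60 ± 0.069 (adjusted p = 9.93e-22) in the combination. CCND1 therefore took a rising share of D-type cyclin transcripts per kilobase, 79.7% ± 1.5 in DMSO, 87.0% ± 0.574 in AKTi, 88.5% ± 0.336 with EZH2i and 89.9% ± 0.0939 in the combination. No treated library overlapped DMSO in this share (exact permutation p = 0.1, the smallest possible).

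CCNE2 (cyclin E2), an E2F target that activates CDK2, showed the largest fall of the 9 genes tested. Its levels were 32.4, 36.3 and 28.3 CPM in DMSO, 15.3, 17.6 and 14.9 in AKTi, 8.17, 9.41 and 9.56 with EZH2i, and 3.55, 4.44 and 5.92 in the combination. The 4 arms formed 4 separate steps, in that order. The log2 difference was -1.02 ± 0.12 (adjusted p = 1.72e-08) in AKTi, -1.83 ± 0.13 (adjusted p = 5.04e-15) with EZH2i and -2.81 ± 0.14 (adjusted p = 1.01e-19) in the combination, a 7.0-fold lower level. Adding the single-agent values gives -2.84, and the interaction was 0.03 (95% confidence interval -0.38 to 0.45, adjusted p = 0.932). CCNE1 was also lower, by -0.88 ± 0.13 in EZH2i (adjusted p = 4.97e-07) and -1.61 ± 0.14 in the combination (adjusted p = 1.18e-12), with -0.27 ± 0.13 in AKTi (adjusted p = 0.0982). CCNE2 made up 54.0% ± 3.88 of E-type cyclin transcripts per kilobase in DMSO and 34.2% ± 9.53 in the combination, without overlap (exact permutation p = 0.1). INTS8 and NDUFAF6 overlap CCNE2 on the opposite strand with 645 to 1832 and 299 to 486 counts per library, and the strand setting of the counting is not given. Summed over 3 libraries, INTS8 held 3994 counts in DMSO and 2071 in the combination, and its part in the CCNE2 values was not tested.

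**Figure D3:**
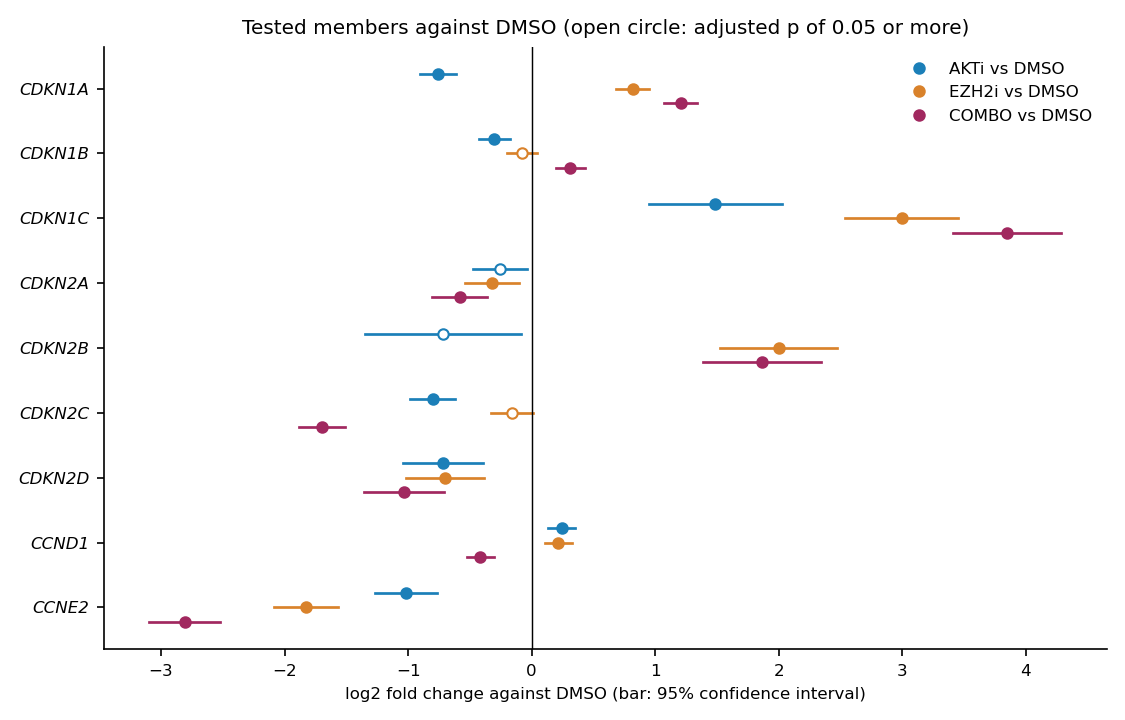
Log2 fold change against DMSO of the 9 tested genes in AKTi, EZH2i and the combination, with 95% confidence intervals as bars and open circles for an adjusted p of 0.05 or more. CDKN1C lies farthest to the right and CCNE2 farthest to the left, and CDKN1A, CDKN1B, CDKN2B and CCND1 have arms on both sides of 0.

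The remaining comparisons ask what each agent added to the other. Between the combination and AKTi, 4 of the 9 genes were higher and 4 lower, where 32.1% of all genes tested were higher and 32.1% lower. CDKN1A, CDKN1B, CDKN1C and CDKN2B were the higher ones, by 1.97 ± 0.069, 0.61 ± 0.060, 2.36 ± 0.19 and 2.58 ± 0.26 on the log2 scale (the largest adjusted p of the 4 was 7.26e-11). CDKN2A, CDKN2C, CCND1 and CCNE2 were lower, by -0.33 ± 0.11 (adjusted p = 0.0113), -0.89 ± 0.097 (adjusted p = 2.94e-10), -0.66 ± 0.053 (adjusted p = 2.21e-13) and -1.79 ± 0.15 (adjusted p = 3.87e-13). The CDKN2A call was lost when scaling by library size (adjusted p = 0.141) or upper quartile (adjusted p = 0.125).

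Between the combination and EZH2i, 3 genes were higher and 3 lower, against 21.1% and 25.7% of all genes. The higher ones were the Cip/Kip genes, CDKN1A and CDKN1B each by 0.39 and CDKN1C by 0.86 ± 0.16 (adjusted p = 2.48e-05). CDKN2C (-1.54 ± 0.092, adjusted p = 1.38e-16), CCND1 (-0.63 ± 0.053, adjusted p = 1.71e-12) and CCNE2 (-0.98 ± 0.15, adjusted p = 1.7e-06) were lower. CDKN2A gave -0.26 (95% confidence interval -0.48 to -0.03, adjusted p = 0.0535), and this passed without EZH2i replicate B (-0.39, adjusted p = 0.00323) or C (-0.32, adjusted p = 0.0296). Between EZH2i and AKTi, 5 genes were higher and 1 lower, against 25.4% and 25.1% of all genes. CDKN2B had the widest gap there, at 2.72 ± 0.26 (adjusted p = 4.1e-11), and the lower gene was CCNE2 at -0.81 ± 0.14 (adjusted p = 4.49e-06). CDKN2A gave -0.07 in that comparison, which passed at -0.32 without EZH2i replicate A (adjusted p = 0.00481).

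In the interaction, 2 of the 9 genes were called higher (CDKN1A and CDKN1B) and 2 lower (CDKN2C and CCND1), where 10.7% of all genes were higher and 17.5% lower. For CDKN1A, the single-agent log2 values add to 0.06 and the combination measured 1.21. For CDKN1B they add to -0.38 against 0.31 measured, and for CCND1 to 0.46 against -0.42, so the measured sign was opposite to that of the sum for these genes. CDKN2C measured -1.70 against a sum of -0.96. CDKN1C, CDKN2A, CDKN2B, CDKN2D and CCNE2 did not pass, and for CDKN2A the sum and the measured value were both -0.58.

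**Figure D4:**
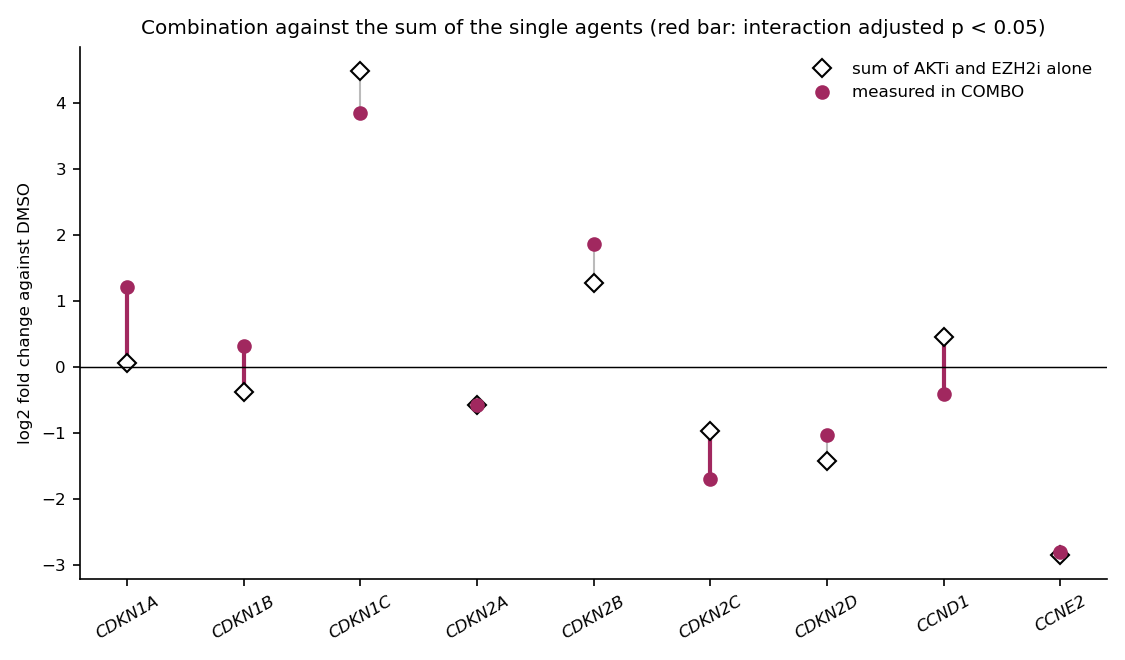
Log2 fold change of the combination against DMSO (filled circles) beside the sum of the single-agent changes (open diamonds) for the 9 tested genes. Red bars mark the 4 genes whose interaction had an adjusted p under 0.05, CDKN1A, CDKN1B, CDKN2C and CCND1, and grey bars mark the other genes.

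Ranked by RPKM in DMSO, the genes ran from CCND1 (67.0 ± 4.67) through CDKN1B (30.5 ± 1.43), CDKN1A (25.1 ± 1.58) and CDKN2C (14.6 ± 0.305) to CDKN2A (8.69 ± 0.367), CDKN2D (7.93 ± 0.790) and CCNE2 (7.35 ± 0.904). CDKN2A and CDKN2D overlapped, as did CDKN2D and CCNE2, and at the bottom CDKN1C (0.421 ± 0.155) overlapped CDKN2B (0.363 ± 0.0703) above CCND2. In the combination CDKN1A (57.8 ± 3.62) stood above CCND1 (50.3 ± 0.986) and CDKN1B (37.9 ± 0.505), with no overlap among them. CDKN1C (5.98 ± 0.664) had moved next to CDKN2A (5.81 ± 0.216) with overlapping libraries, followed by CDKN2C (4.50 ± 0.300) and CDKN2D (3.88 ± 0.987), which overlapped, and by CDKN2B (1.33 ± 0.0335) and CCNE2 (1.05 ± 0.273), which also overlapped. By RPKM, CDKN1A was the most abundant of the 10 transcripts in the combination, and CCND1 was in the other arms. That order rests on the deposited gene lengths (3050 bases for CDKN1A, 4830 for CCND1), and by CPM CCND1 led in the combination too, at 243 against 176.

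The kinases that these proteins bind were mostly lower. CDK2, the partner of E-type cyclins, was lower by -0.82 ± 0.072 in AKTi (adjusted p = 8.72e-12), -1.06 ± 0.072 in EZH2i (adjusted p = 1.62e-15) and -2.60 ± 0.081 in the combination (adjusted p = 4.61e-26), with an interaction of -0.71 ± 0.11 (adjusted p = 4.05e-06). CDK4 was lower in all treated arms and reached -1.15 ± 0.058 in the combination (adjusted p = 1.19e-19). CDK6, its close relative, was scarce at 0.795 RPKM in DMSO against 47.1 for CDK4. It was lower in AKTi (-0.89 ± 0.17, adjusted p = 3.64e-05), and gave 0.10 in EZH2i (adjusted p = 0.595) and 0.19 in the combination (adjusted p = 0.247). The combination value of CDK6 passed when scaled by library size (0.39, adjusted p = 0.0187) or upper quartile (0.38, adjusted p = 0.0246). Of 11 genes of the G1 cyclin-CDK machinery, which include these kinases, CCND3 and CCNE1, 10 were tested, and 9 were lower in AKTi, 8 with EZH2i and 8 in the combination, and none was higher. Over all genes tested, 21.9%, 31.5% and 35.2% were lower in these arms. The list's median log2 difference was -0.56, -0.80 and -1.38. CDC25A, the phosphatase that activates CDK2, was lowest in EZH2i (-1.97 ± 0.097, adjusted p = 2.06e-19), and CCNA2, the S phase cyclin A, was lowest in AKTi (-1.37 ± 0.066, adjusted p = 8.78e-19) and in the combination (-3.56 ± 0.077, adjusted p = 9.3e-31). The highest value past the test was that of CDK4 in AKTi (-0.25 ± 0.057, adjusted p = 3.75e-04) and of MNAT1, a CDK-activating kinase subunit, in EZH2i (-0.40 ± 0.097, adjusted p = 4.43e-04) and the combination (-0.63 ± 0.098, adjusted p = 4.75e-07).

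Downstream, the list of 13 pocket proteins, E2F factors and their DP partners had 10 lower and 2 higher in AKTi, 11 and 2 with EZH2i, and 10 and 2 in the combination, with medians of -0.35, -0.96 and -1.16. Over all genes tested, 21.9%, 31.5% and 35.2% were lower and 20.6%, 32.6% and 38.0% higher in these arms. The higher count in EZH2i was 1 without DMSO replicate B or EZH2i replicate B. E2F2, an activator E2F, fell by 5.12 ± 0.23 on the log2 scale in the combination (adjusted p = 2.37e-21) and was at -1.94 ± 0.16 in EZH2i (adjusted p = 3.96e-13). E2F8, a repressor E2F, was lowest in AKTi (-1.09 ± 0.13, adjusted p = 2.03e-08). RBL2, the pocket protein p130 of resting cells, was highest in AKTi (0.51 ± 0.060, adjusted p = 8.54e-09), and TFDP2 was highest in EZH2i (0.61 ± 0.064, adjusted p = 1.48e-10) and the combination (0.76 ± 0.064, adjusted p = 2.72e-13). Of 24 E2F-responsive genes of DNA replication, 23 were lower in AKTi and 24 in both EZH2i and the combination, with medians of -0.76, -1.34 and -2.92, beside the same shares of lower genes. MCM10, a replication initiation factor, was lowest in EZH2i (-2.17 ± 0.085, adjusted p = 2.06e-22) and in the combination (-5.52 ± 0.12, adjusted p = 8.75e-31), and CDC45, of the replicative helicase, was lowest in AKTi (-1.38 ± 0.085, adjusted p = 6.32e-16). RRM1, a ribonucleotide reductase subunit, fell least in EZH2i (-0.68 ± 0.060, adjusted p = 2.22e-12) and the combination (-1.56 ± 0.062, adjusted p = 8.63e-23), and UHRF1 least among those called in AKTi (-0.37 ± 0.073, adjusted p = 7.47e-05). In the interaction 20 of these 24 genes were called lower and none higher, where 17.5% of all genes tested were lower and 10.7% higher. Their median there was -0.84 against -0.05 over all genes tested.

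Upstream, 15 transcriptional regulators of the 10 genes, FOXO and SMAD factors, MYC, p53, SP1 and Polycomb subunits among them, moved both ways. In the combination 9 were higher and 5 lower (8 and 4 in EZH2i, 5 and 3 in AKTi), with medians of 0.58, 0.25 and 0.09. All genes tested were higher in 38.0%, 32.6% and 20.6% of cases and lower in 35.2%, 31.5% and 21.9%, so the counts of lower regulators were near the background. FOXO3, a factor that AKT is known to exclude from the nucleus, was highest in EZH2i (2.16 ± 0.064, adjusted p = 7.18e-26) and in the combination (2.94 ± 0.065, adjusted p = 1.8e-30), and FOXO4 was highest in AKTi (0.98 ± 0.10, adjusted p = 4.21e-10). MYC was lowest in EZH2i (-1.37 ± 0.057, adjusted p = 1.78e-21). In AKTi MYC was higher (0.71 ± 0.055, adjusted p = 3.1e-13), and in the combination it was -0.32 ± 0.055 (adjusted p = 3.72e-06). EZH2 itself was lowest in AKTi (-0.87 ± 0.076, adjusted p = 7.44e-12) and the combination (-1.73 ± 0.079, adjusted p = 4.83e-21), and in EZH2i it was -1.10 ± 0.076 (adjusted p = 2.16e-15). Of 13 genes that govern turnover of these proteins, 8 were lower and 4 higher in the combination, 9 and 3 with EZH2i, and 6 and 3 in AKTi, with medians of -0.51, -0.37 and -0.11. Against the same shares of all genes, the higher counts were near or below the background. The higher count in AKTi was 1 without DMSO replicate B, AKTi replicate B or AKTi replicate C. DTL, which targets CDKN1A protein for degradation, was lowest in the combination (-4.94 ± 0.17, adjusted p = 4.5e-25). CKS1B, a cofactor for CDKN1B degradation, was lowest in EZH2i (-1.86 ± 0.081, adjusted p = 5.56e-21) and AKTi (-1.43 ± 0.080, adjusted p = 6.73e-17). GSK3B, a kinase that marks cyclin D1 for export and degradation, was highest in EZH2i (0.55 ± 0.055, adjusted p = 3.9e-11) and the combination (0.64 ± 0.055, adjusted p = 5e-13), and RNF123, a ligase for CDKN1B, was highest in AKTi (0.74 ± 0.080, adjusted p = 1.4e-09).

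**Figure D5:**
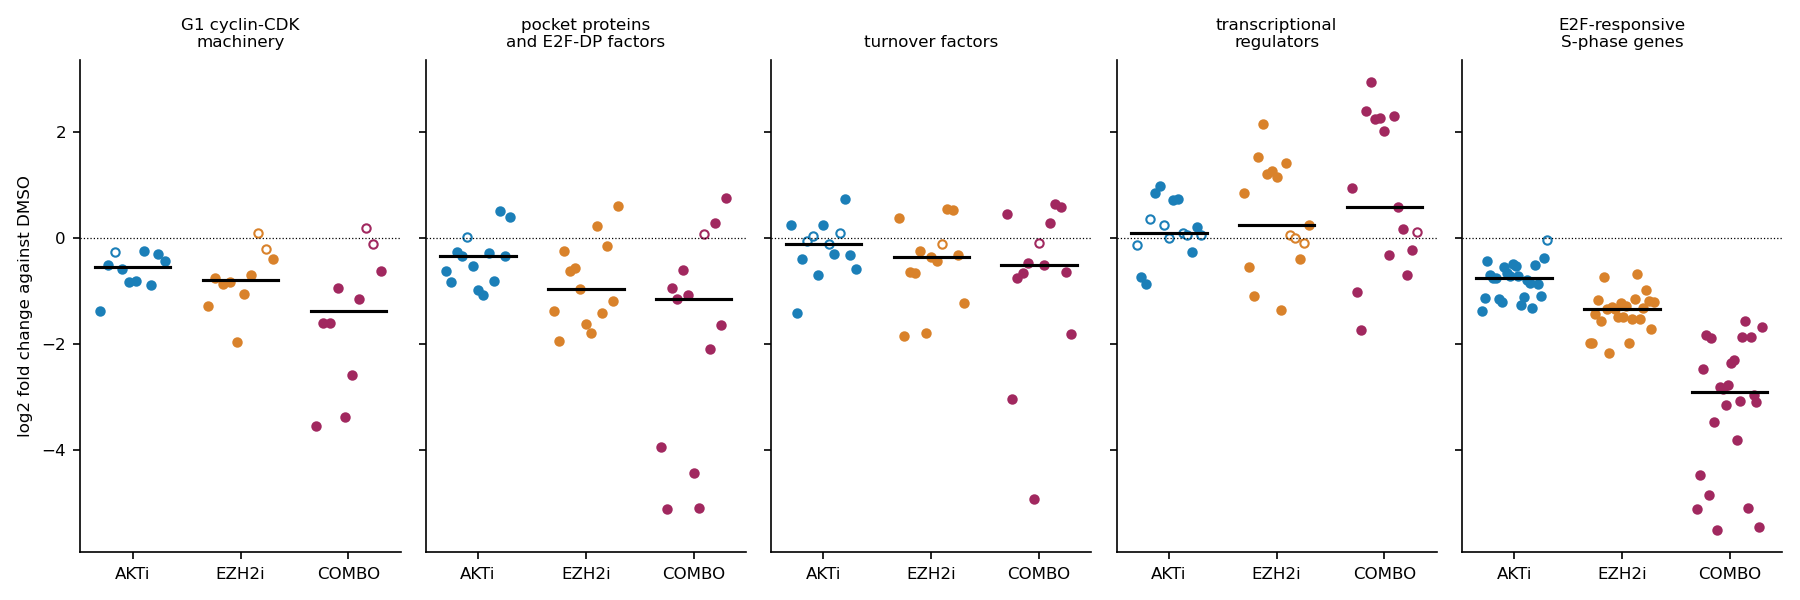
Log2 fold change against DMSO of the tested genes of 5 related lists in AKTi, EZH2i and the combination. Points are genes, filled where the adjusted p was under 0.05, and bars are list medians. The 24 E2F-responsive S phase genes have medians of -0.76, -1.34 and -2.92.

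Across the 12 libraries, the protein-coding genes whose log2 CPM followed each of the 9 tested genes most closely were found among 13082 genes by Pearson's r, as a description over libraries that fall into 4 arms. CDKN1A was closest to MPP7 (r = 0.986), ENOX2 and UBE2E3, and CDKN1B to GTPBP2 (r = 0.975), CSNK1A1 and LPGAT1. CDKN1C was closest to ZNF629 (r = 0.991), ITGA3 and ZNF462. The INK4 genes had separate neighbours, CDKN2A with RPS27 (r = 0.957), UBL5 and RPL38, CDKN2B with SSBP2 (r = 0.983), SEC11C and GBP2, CDKN2C with RAP2B (r = 0.989), SMTN and GTSE1, and CDKN2D with BNIP1 (r = 0.965), NPC1 and DDX11. CCND1 was closest to PPIL2 (r = 0.980), GTF3C1 and NETO1, and CCNE2 to ADK (r = 0.994), PAK1IP1 and MRS2. No gene appeared among the top 3 of more than 1 member, and how often this holds for other sets of genes was not tested.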

How the data were processed

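The authors aligned reads to hg38 with STAR, counted them per gene with HTSeq and deposited raw counts per gene for 12 libraries. Of the tools, no version, annotation release or strand setting is given in the sources used here. The deposited gene length column, whose transcript model is not stated, was used for RPKM and shares. The authors' DESeq2-normalized table was not used.

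Counts were analysed in R 4.3.3 with edgeR 4.0.16: filterByExpr (minimum count 10, total 15; 16646 genes), TMM, 1 mean per arm over all 12 libraries, quasi-likelihood test, Benjamini-Hochberg at 0.05. The SE is the log2 difference divided by the square root of F. Shares were tested by exact two-sided permutation. Steps were tested on simulated data. Genes named are the 10 genes, CCND3, CCNE1, CDK2, CDK4, CDK6, EZH2, the called extremes of each list against DMSO, and the 3 closest genes by r. The genes and lists were chosen with earlier results of these data known. Alternatives were DESeq2 1.42.0, other scalings and filters, a fit to the arms compared alone, a block on replicate letters, and leaving out single libraries. Promoters are RefSeq sequences (GRCh38.p14).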

Additional observations from a re-analysis of the deposited data

Results flagged for a closer look

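Of the 9 tested genes, 4 had an AKTi effect that differed between cells without and with tazemetostat, by the interaction term of the edgeR fit. Over all genes tested, 10.7% were called higher and 17.5% lower in the interaction. The interaction on the log2 scale was 1.15 for CDKN1A (adjusted p = 5.9e-12), where AKTi gave -0.76 alone and 0.39 on top of EZH2i. It was 0.69 for CDKN1B (adjusted p = 4.08e-08), with -0.30 alone and 0.39 on top of EZH2i. For CCND1 it was -0.88 (adjusted p = 1.6e-11), with 0.24 alone and -0.63 on top of EZH2i. For CDKN2C it was -0.73 (adjusted p = 2.47e-05), with -0.80 alone and -1.54 on top of EZH2i. These 4 calls held in all 19 alternatives run on each.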

How the results depend on the processing

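Over 63 values of the 9 genes and 920 alternatives, 876 kept direction and call, 5 lost the call, 15 gained it and 24 changed sign, the last all in values near 0 without a call. Values that changed sign were CDKN1B in EZH2i against DMSO (0.066 by library size, 0.041 by upper quartile), CCND1 in EZH2i against AKTi (0.059 by library size, 0.035 by upper quartile, 0.0057 with at least 10 counts in every library), CDKN2A in EZH2i against AKTi (0.018 by library size, and from -0.32 to 0.062 with 1 library left out, the ends without EZH2i A and B), and CDKN2D in EZH2i against AKTi (-0.10 to 0.10 with 1 library left out, below 0 without AKTi A, AKTi B or EZH2i C). The CDKN2A interaction was 0.0014 by DESeq2, 0.0046 by upper quartile, 0.0050 by RLE scaling and 0.029 with at least 10 counts in every library, and -0.14 to 0.20 with 1 library left out, above 0 without DMSO B, DMSO C, AKTi B, EZH2i A or COMBO A. The CCNE2 interaction was -0.18 to 0.20 with 1 library left out, below 0 without DMSO B, AKTi A, EZH2i A or COMBO C. The cause was not tested. With 1 library left out, calls among the 9 genes numbered 7 to 8 in AKTi, 6 to 8 in EZH2i and 9 in the combination, and 4 in the interaction.

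Scaling by library size raised the median log2 difference of all genes in the combination from 0.06 to 0.26. It moved the split of higher and lower genes from 5421 and 5249 to 6630 and 4193 in EZH2i against DMSO, from 5344 and 5343 to 6544 and 4330 in the combination against AKTi, and from 4226 and 4170 to 5104 and 3293 in EZH2i against AKTi. Against DMSO it went from 3429 and 3644 to 4112 and 3023 in AKTi and from 6320 and 5866 to 7574 and 4749 in the combination, and for the combination against EZH2i from 3506 and 4275 to 4069 and 3687, so the majority direction turned in AKTi against DMSO and in the combination against EZH2i.

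Replicate letters did not pair the libraries: over 18 same-letter pairs r ran from -0.058 to 0.069, and 4 of 12 libraries correlated best with their own letter. With a replicate block, 7044 genes were called in AKTi against 7073 without, 10633 against 10670 in EZH2i, 12146 against 12186 in the combination and 4627 against 4688 in the interaction. Among the 9 genes the block changed the call of CDKN2A in AKTi (adjusted p = 0.0462) and the sign of its interaction (0.0063).

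The higher count of the G1 cyclin-CDK list in the combination was 0, and 1 by library size or upper quartile. Depth limits CDKN1C, at 11 to 20 counts per DMSO library, CCND2, at 0 or 1, and CDKN2B, at 9 to 15 per AKTi library, which the filter of at least 10 counts in every library removed.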
